A study of Saccharomyces cerevisiae with 42 samples.

Results

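The 36 genes described here make, store and move ergosterol in budding yeast. They were taken from a fixed list of symbols matched to NCBI gene identifiers, and all 36 were found among the 6106 genes of the table. No measured value enters the rule of the list, but it was drawn up with earlier results of these data known. They comprise 25 enzymes of the pathway from acetyl-CoA to ergosterol, with their helper proteins, 2 transcription factors of sterol genes, 5 genes of steryl ester synthesis and hydrolysis, and 4 genes of sterol uptake and transport. RNA was measured by RNA-seq in 42 libraries, 3 in each of 14 groups. All groups were the prototrophic MATa strain BY4741, in which a plasmid restores the genes that the strain lacks. Saturated cultures were diluted into fresh medium at 0 h with myriocin (Myr, 700 ng/ml in 0.3% ethanol) or with vehicle (0.3% ethanol alone), and 7 samplings followed, hourly from 0 to 6 h. The drug inhibits serine palmitoyltransferase, the first enzyme of sphingolipid synthesis, and every Myr group differs from its vehicle group by the drug and also by the spike-in mix added to the RNA, mix 2 with Myr and mix 1 with vehicle.

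Ergosterol is the main sterol of yeast and takes the place that cholesterol has in animal cells. It lies with sphingolipids in the plasma membrane, and the surplus is stored as steryl esters in lipid droplets. The pathway runs from the mevalonate steps through squalene to lanosterol, the first sterol, and then through demethylation and changes of the ring and the side chain to ergosterol. Several late steps use oxygen and heme, and the transcription factors Upc2 and Ecm22 switch sterol genes on when sterol is low. Yeast takes up sterol from outside mainly when oxygen is absent.

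Short motifs linked to these factors were looked for in the 500 bases before each start codon, on both strands, in the R64 genome, which is the build of the deposited table. The sterol response element of Upc2 and Ecm22, TCGTATA, was found before 10 of the 36 members (27.8%) and before 7% of the 6000 genes with such a window. The related anaerobic form TCGTTTAG was found before 12 members (33.3%) and 1.78% of all genes, and the form TCGTTCAG before 2 members (5.56%) and 1.5% of all genes. At least 1 of the 3 was present before 21 members (58.3%), against 9.9% of all genes, in 28 places that did not overlap each other or the coding sequence of a neighbour. The core ATTGTT of Rox1, a repressor of hypoxic genes, was before 24 members (66.7%) and 48.9% of all genes, and the Hap1 motif was before 0 members and 0.35% of all genes. A match is a run of letters and not a site shown to be bound.

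The windows below belong to genes that the results turn on. Each is written 5′ to 3′ on the strand of its gene, with the motif or its reverse complement in capitals, and comes from the RefSeq R64 sequence.
ERG9, squalene synthase, chrVIII:484694-484723, plus strand, 140 bases before the start codon: gggtttagtgcCTAAACGAgcagcgagaac
ERG20, farnesyl diphosphate synthase, chrX:104811-104840, plus strand, 192 bases before: tctcgtcggttCTAAACGAaacgccttgtt
ERG6, sterol methyltransferase, chrXIII:253405-253433, minus strand, 432 bases before: agccccgatctTCGTATAtggtacctcgt
ERG3, sterol desaturase, chrXII:253564-253592, plus strand, 286 bases before: aaaattcaggcTCGTATAagtggcacaat
ERG25, methyl sterol oxidase, chrVII:610090-610118, plus strand, 463 bases before: ggacacagagaTCGTATAcggtaaacgac
ERG4, the last reductase of the pathway, chrVII:472628-472657, plus strand, 216 bases before: tcgtttaataaCTAAACGAgactcatttct
ERG11, lanosterol demethylase, chrVIII:121799-121828, minus strand, 134 bases before: gataagcagtaTCGTTCAGcgtgtgtattt
HES1, a sterol-binding protein, chrXV:781647-781676, plus strand, 336 bases before: ccgtttgacacCTAAACGAcctttcagcct
ERG3 had 4 motif places and DAN1 had 3, while ARE2, ERG26 and ERG27, which also changed with Myr, had none of the 3 forms in their windows.

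The values are TPM (transcripts per 1000000), which express each transcript as a share of its library after division by transcript length, so levels can be compared between genes. No read counts are in the table, so depth and counting error are unknown. Precision rests on the spread among the 3 libraries of each group, taken over groups. The median gap per gene between a pair of libraries of a group was 0.07 to 0.50 log2 units. The libraries carried a-cell markers: 5 such genes added to 7007 to 20660 TPM per library and 4 alpha-cell genes to 25.8 to 116 TPM, with 0 of the 9 at zero. In 4 vehicle libraries (3 h A and B, 4 h B and 5 h A) the ribosomal protein gene RPL41A stood above 70000 TPM, between 71452 and 107109 TPM, which lowers the share left for every other gene. The shortfall of other genes in such a library was unequal, however. In vehicle 4 h library B ERG9 was at 66.8 TPM, against 97.1 and 104 TPM in C and D. ERG28 was at 99 TPM there, against 92.1 and 114 TPM. RPL41A ran from 31548 to 107109 TPM in the vehicle libraries of 4 h. How much of the shortfall its share makes up, and what made the shortfall unequal, were not tested. In a culture, fewer cells that express a gene and less RNA of it per cell cannot be told apart.

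Linear models (limma) were fitted to log2(TPM + 1) of 5983 genes whose average reached 1 TPM, a filter that all 36 members passed. A gene is called higher or lower in a comparison at a Benjamini-Hochberg adjusted p under 0.05 over all those genes. Changes below are on the log2(TPM + 1) scale with their SE, which understates the change of genes near 1 TPM. The p-values measure the spread between these libraries. Groups are also described as apart where their libraries do not overlap. This describes the values and adds no support, since most genes so described were chosen for a large called change. The share of all genes with groups apart was not counted. All hours of a replicate were drawn from 1 flask, so libraries of different hours share cultures. The models of time, of the drug averaged over hours, of the interaction and of the step from 4 to 5 h take them as independent.

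Levels spanned a wide range and the late enzymes led. ERG25, which removes methyl groups from sterols, had the highest mean over the 36 libraries of 1 to 6 h at 682 TPM, followed by ERG3 at 587, ERG11 at 323, ERG2, a sterol isomerase, at 318, ERG4 at 230 and ERG6 at 225 TPM. The regulators UPC2 and ECM22 stood at 7.48 and 9.3 TPM. The uptake genes were low: AUS1, a sterol importer of the plasma membrane, had 5.52 TPM, HES1 4.91 TPM and DAN1, a cell wall protein of anaerobic cells, 1.41 TPM. Over the 14 groups the mean of ERG28, a scaffold of the demethylation complex, ranged most, from 34.1 to 291 TPM (8.54-fold), and that of ERG11 least, from 285 to 370 TPM (1.3-fold).

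The first question was how these genes behave in vehicle as saturated cells return to growth. Between 0 and 1 h 26 of the 36 members changed, 9 higher and 17 lower, where 81.8% of all genes were called, 29.3% higher and 52.6% lower. Of the 9 mevalonate genes 6 were lower and 1 higher (IDI1, the isomerase of the isoprenoid unit, at 0.36 ± 0.10), while 4 of the 5 ring and side chain enzymes rose and 1 fell.

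ERG28 was at 275, 328 and 270 TPM at 0 h and at 35.5, 37.6 and 42.3 TPM at 1 h, a fall by 2.89 ± 0.11 (adjusted p = 8.3e-23). ERG9, squalene synthase, was at 111, 141 and 127 TPM and then at 26.7, 26.2 and 31.3 TPM (-2.13 ± 0.12, adjusted p = 5.3e-18). TGL1, a steryl ester hydrolase of lipid droplets, was at 24.6, 30.7 and 23.5 TPM and then at 6.6, 7.72 and 7.87 TPM (-1.69 ± 0.11). In these 3 genes every library of 1 h was below every library of 0 h. ECM22 was at 18.6, 15.1 and 17.7 TPM at 0 h and at 4.21, 4.67 and 6.09 TPM at 1 h (-1.60 ± 0.15), while UPC2, its partner, showed no call, with 8.99 to 9.47 TPM and then 6.99 to 9.8 TPM. The largest rises were those of ERG7, lanosterol synthase (1.58 ± 0.15), ERG4 (1.49 ± 0.13) and YEH1, another steryl ester hydrolase (1.40 ± 0.10).

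From 1 h to 6 h in vehicle 28 members changed, 20 higher and 8 lower (all genes: 69.6%, with 43.3% higher and 26.3% lower). The contrast shares its 1 h libraries with the one before, so low values at 1 h enter both. All 9 mevalonate genes were called, 8 higher and IDI1 lower (-0.58 ± 0.10). TGL1 went to 43.5, 42.2 and 43.1 TPM at 6 h (2.39 ± 0.11), ERG20, which makes farnesyl diphosphate, from 61.4, 65.5 and 84 TPM to 271, 307 and 318 TPM (2.08 ± 0.13), ERG9 to 101, 123 and 117 TPM (1.98 ± 0.12) and ERG28 to 131, 153 and 147 TPM (1.87 ± 0.11). The groups did not overlap in any of these 4 genes. Among the 8 that fell were YEH1 (-1.47 ± 0.10), ERG25 (-1.38 ± 0.13), HES1 (-1.01 ± 0.18), ERG3 (-0.93 ± 0.10) and ERG4 (-0.69 ± 0.13). ERG25 and ERG3 together made up 44.8% ± 2.74 of the summed TPM of the 25 enzymes at 0 h and 21.8% ± 0.72 at 6 h in vehicle (SD, n = 3).

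The Myr cultures passed through a like course: 6 members rose and 21 fell between 0 and 1 h (all genes: 82.8%, with 27.2% higher and 55.6% lower), and 21 rose and 6 fell between 1 h and 6 h (72.2%, with 50.6% and 21.6%). ERG5, a side chain desaturase, was an exception, since it rose in the first hour in vehicle (0.50 ± 0.11) and fell with Myr (-0.53 ± 0.11). The directions of the time course depend on the scaling. With each library centred on its median gene, 15 members rose and 13 fell from 0 to 1 h in vehicle (all genes: 41.9% and 43.5%). From 1 to 6 h 17 rose and 15 fell (38.5% and 38.9%). With libraries scaled to the spike-ins, 25 rose and 3 fell in the first hour in vehicle (60.1% and 19%), where the median gene moved by 0.85. From 1 to 6 h 11 then rose and 13 fell (22.6% and 30.9%). ERG28, ERG9 and TGL1 still fell in the first hour in vehicle under both scalings. With spike-in scaling the first-hour calls of ERG10, ERG13, HMG1, HMG2, ERG12, ERG20 and ECM22 in vehicle were lost. The first 6 of these are all the mevalonate genes called lower in TPM. Median centring lost the call of ERG12 among them. The fall of ERG5 with Myr was called under neither scaling, nor with a trend on coding length removed.

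**Figure D1:**
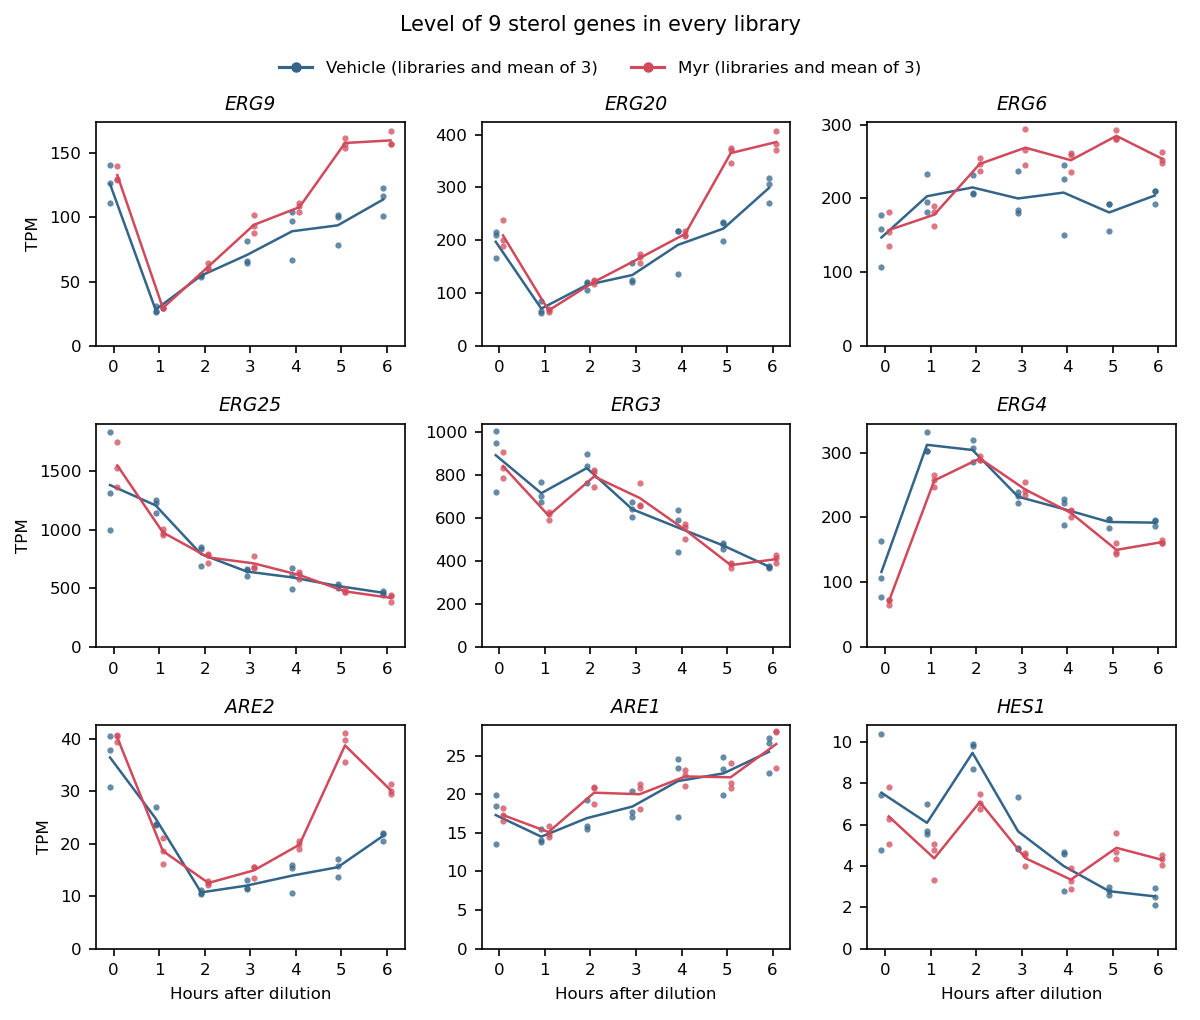
TPM (y axes, from 0) against hours after dilution for 9 genes, with vehicle in blue and Myr in red, 1 point for each library and lines through the means of 3. ERG9 and ERG20 fall in the first hour and climb afterwards, with Myr above vehicle at 5 and 6 h. ERG25 declines over the hours, and ERG3 rises from 1 to 2 h but ends below its 0 h level. ERG4 is lower with Myr at 0, 1, 5 and 6 h. ARE2 with Myr is below vehicle at 1 h and above it from 3 to 6 h, most at 5 h, while ARE1 stays close to vehicle.

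The second question was how Myr changes these genes at each hour. At 0 h, before any growth, 4 members were called higher with Myr (HMG1 0.56 ± 0.13, AUS1 0.50 ± 0.14, ERG5 0.35 ± 0.11, IDI1 0.34 ± 0.10) and ERG4 lower (-0.65 ± 0.13), where 11.9% of all genes were called, 8.26% higher and 3.63% lower. A fit of only the 0 h libraries called 0 genes, and with spike-in scaling 0 of these 5 calls were kept. Of the 5 calls 2 were kept without vehicle library A or Myr library C, and 3 without vehicle library B or Myr library B. ERG4 was at 77.1, 164 and 106 TPM in vehicle and at 64.3, 73.2 and 73 TPM with Myr, and these groups did not overlap.

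At 1 h 0 members were higher and 5 lower (all genes: 5.43%, with 2.42% higher and 3.01% lower; by limma at an unadjusted p under 0.05 0 members were higher), and 3 of the 5 are ring and side chain enzymes. ERG5 was at 141, 144 and 157 TPM in vehicle and at 89.1, 94.8 and 89.2 TPM with Myr (-0.69 ± 0.09, adjusted p = 4.6e-06). ARE2, which esterifies sterols for storage, was at 23.6, 23.7 and 27 TPM and at 21.1, 18.5 and 16.1 TPM (-0.40 ± 0.11, adjusted p = 0.024). The groups did not overlap in either gene. The others were ERG2 (-0.35 ± 0.07), ERG25 (-0.30 ± 0.09) and ERG4 (-0.28 ± 0.07). The summed TPM of the 25 enzymes was 4133, 4318 and 4760 in vehicle and 3934, 3950 and 3665 with Myr (exact permutation p = 0.10, two-sided, the smallest possible with 3 against 3). Without vehicle library C or Myr library C 2 of the 5 were called, ERG5 and ERG2, and 3 without Myr library B.

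At 2 h 2 members were higher and 2 lower (all genes: 18.5%, with 16% and 2.49%). HMG1, the main HMG-CoA reductase and with HMG2 the rate-limiting step, was at 18.8, 16.6 and 14.8 TPM in vehicle and at 22.6, 21.2 and 22.8 TPM with Myr (0.39 ± 0.12, adjusted p = 0.028). DAN1 was at 3.54, 2.34 and 2.9 TPM and at 1.37, 1.21 and 2.04 TPM (-0.63 ± 0.22, adjusted p = 0.048). Both pairs of groups were apart, with TGL1 higher (0.35 ± 0.11) and ERG28 lower (-0.35 ± 0.10). The DAN1 call was also lost with a pseudocount of 0.1 and with the column letter as a random block. No call held without vehicle library C or D or Myr library B or C, and 1 of the 4 (ERG28) without Myr library A.

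At 3 h 11 members were higher and 0 lower (all genes: 42%, with 39.4% and 2.62%; 2 members were lower by limma at an unadjusted p under 0.05): ERG10, ERG13, ERG8, MVD1, ERG20, ERG9, ERG24, ERG27, ERG6, ERG5 and ARE2. ERG6 was at 180, 184 and 237 TPM in vehicle and at 294, 266 and 246 TPM with Myr (0.43 ± 0.13, adjusted p = 0.019), and ERG8, phosphomevalonate kinase, at 37.5, 34.6 and 45.6 TPM and at 56.9, 50.8 and 50.7 TPM (0.43 ± 0.12, adjusted p = 0.017). The vehicle libraries A and B at this hour are among those rich in RPL41A (71452 and 81797 TPM), and in both genes they are the 2 lower ones. Without either of them, or without Myr library A, 1 of the 11 was called. The count was 3 without Myr library B and 18 without vehicle library D. Without the 4 libraries rich in RPL41A it was 0 (all genes: 1.34% higher and 0.518% lower). After median centring 3 members were higher and 6 lower (5.88% and 4.68%). With a trend on coding length removed 0 were higher and 6 lower (4.41% and 3.66%), and 0 of the 11 calls were kept.

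At 4 h ARE2 was higher and YEH1 lower, and no other member was called (all genes: 7.07%, with 6.12% and 0.953%). ARE2 was at 10.5, 16 and 15.4 TPM in vehicle and at 20, 18.9 and 20.4 TPM with Myr (0.50 ± 0.11, adjusted p = 0.0046). YEH1 was at 30.7, 41.1 and 34.5 TPM and at 29.5, 27.5 and 29.6 TPM (-0.28 ± 0.09, adjusted p = 0.046), and with spike-in scaling its value turned to 0.28 with no call. Here too the groups were apart. The ARE2 call was lost without vehicle library B, the one at 107109 TPM of RPL41A, and the YEH1 call without vehicle library C or any of the 3 Myr libraries. The count was 1 without vehicle library B or any of the 3 Myr libraries, 4 without vehicle library C and 8 without vehicle library D.

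In TPM as deposited the 5 h comparison held the most calls, 18 members higher and 3 lower. After median centring 6 h held more (24 against 22), and with spike-in scaling 2, 3 and 4 h did (34, 34 and 33 against 30). Of all genes centring called 18.1% higher and 10.8% lower at 6 h, against 23.6% and 20.8% at 5 h. Spike-in scaling called 93.7%, 95% and 89.5% of all genes higher at 2, 3 and 4 h, against 87.1% at 5 h. In TPM at 5 h members were called higher no more often than all genes. Of all genes 56.2% were called, 52.2% higher and 3.99% lower, and the median change was 0.29 over the members and 0.31 over all genes. Of the 12 early enzymes, those of the mevalonate and squalene steps, 8 were higher and 0 lower, with a median of 0.38. Of the 13 later enzymes 4 were higher (ERG26, ERG27, ERG29, ERG6) and 2 lower (ERG3 and ERG4), with a median of 0.04. Both regulators, ARE2, TGL1, ARV1 and HES1 were higher and YEH1 was lower.

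ARE2 changed most. It was at 13.6, 15.8 and 17 TPM in vehicle and at 35.5, 41 and 39.7 TPM with Myr (1.27 ± 0.11, adjusted p = 9.3e-11). The lowest Myr library was thus above the highest vehicle library by more than their spread. ARE1, the other acyltransferase for sterols, was at 19.9, 24.8 and 23.3 TPM and at 20.8, 21.5 and 24.1 TPM (-0.03 ± 0.11, adjusted p = 0.83), and these groups overlapped.

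ERG26, a sterol dehydrogenase of the demethylation complex, was at 43.5, 55 and 57.2 TPM in vehicle and at 84.7, 96.1 and 92.9 TPM with Myr (0.81 ± 0.12, adjusted p = 1.4e-06). ERG9 was at 78.8, 102 and 100 TPM and at 154, 157 and 162 TPM (0.76 ± 0.12, adjusted p = 4.5e-06). ERG20 was at 198, 234 and 233 TPM and at 347, 375 and 371 TPM (0.72 ± 0.13, adjusted p = 3.8e-05). All 3 had every Myr library above every vehicle library. These 3 and ARE2 were called under each of the 17 other settings and left-out libraries tried.

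ERG6 (0.66 ± 0.13), HES1 (0.63 ± 0.15), ERG10, which joins the first acetyl-CoA units (0.55 ± 0.11), ERG8 (0.54 ± 0.12) and ERG27, a keto sterol reductase (0.48 ± 0.10), came next. The other 9 that were higher lay between 0.23 (ARV1) and 0.41 (ERG13, HMG-CoA synthase). HMG2 was at 12.6, 13.8 and 14.1 TPM in vehicle and at 17.6, 17 and 18.4 TPM with Myr (0.36 ± 0.10, adjusted p = 0.0024), and its share of the 2 reductases was 28.4% ± 0.6 in vehicle and 31.5% ± 2.42 with Myr (SD, n = 3). HMG1, at 30.8, 35.7 and 35.8 TPM and at 33.7, 39 and 43 TPM, was not called (0.17 ± 0.12, adjusted p = 0.22). UPC2 was at 5.6, 7.32 and 6.32 TPM and at 8.28, 8.97 and 8.91 TPM (0.40 ± 0.15, adjusted p = 0.028), and ECM22 at 9.12, 11.5 and 11.1 TPM and at 13.1, 15.3 and 13.8 TPM (0.38 ± 0.15, adjusted p = 0.033). Both regulators had separate groups, but neither was called after median centring or without vehicle library A, the one of this hour rich in RPL41A (85010 TPM), nor without Myr library B or C, and UPC2 not without vehicle library C. Without vehicle library A the calls of ERG13, ERG12, MVD1 and ARV1 were lost as well.

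The genes that did not rise include the most abundant. ERG4 was lower by 0.36 ± 0.07 on the log2 scale (adjusted p = 9.8e-05), YEH1 by 0.34 ± 0.09 and ERG3 by 0.31 ± 0.09. ERG11, the target of azole antifungals, was at 323, 341 and 340 TPM in vehicle and at 285, 295 and 279 TPM with Myr, apart but not called (-0.23 ± 0.11, adjusted p = 0.078). AUS1 (5.73, 6.94 and 6.41 TPM against 6.51, 6.22 and 6.43 TPM) and DAN1 (0.78, 0.57 and 0.96 TPM against 0.38, 1.04 and 0.75 TPM) overlapped between treatments, with changes of 0.01 ± 0.12 and -0.05 ± 0.22.

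**Figure D2:**
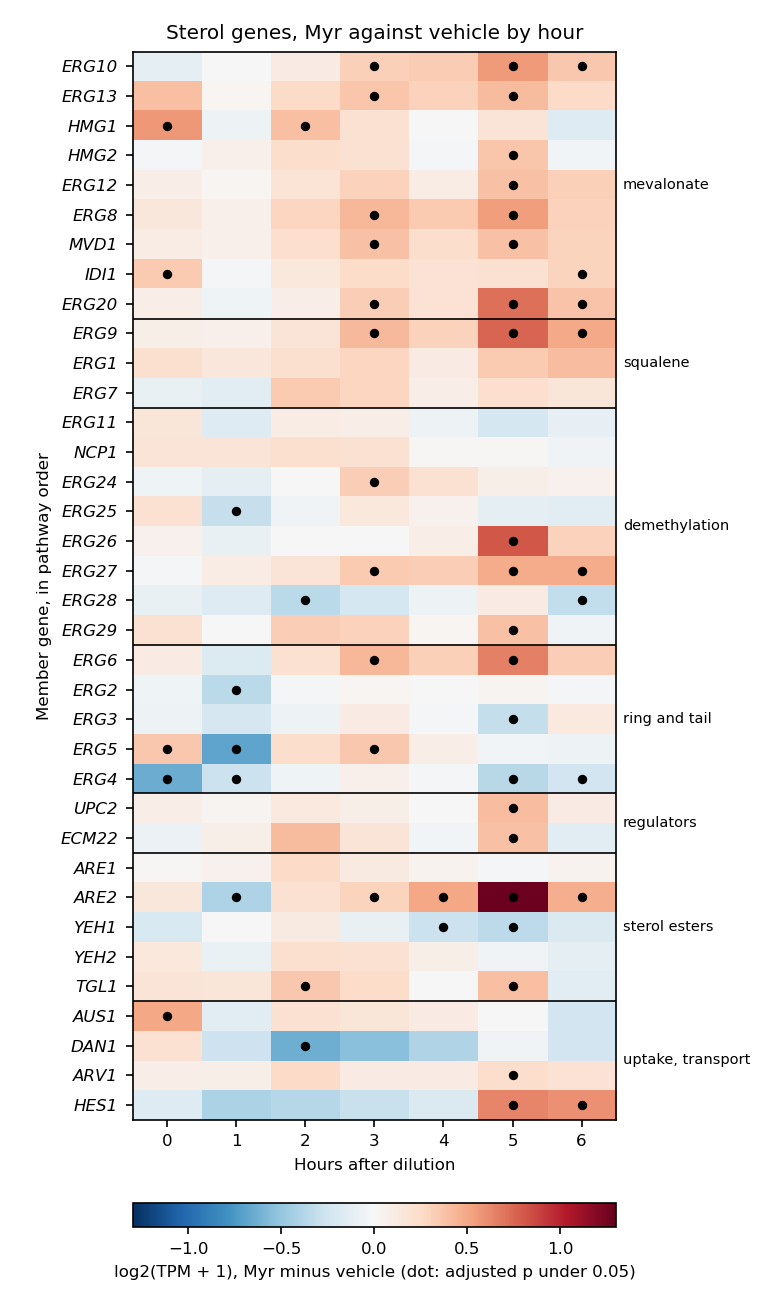
Change in log2(TPM + 1), Myr minus vehicle, for the 36 members (rows, in pathway order) at 7 hours (columns), red for higher and blue for lower with Myr, with a dot where the adjusted p was under 0.05. The upper rows (mevalonate and squalene) are red at 3 and 5 h, the rows of later enzymes hold most blue cells with a dot, and ARE2 at 5 h has the largest change, 1.27.

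The median gene itself stood higher with Myr by 0.31 at 5 h, and by 0.27, 0.20, 0.15 and 0.14 at 3, 2, 6 and 4 h, so the members were also read relative to it. After median centring 9 members were higher and 13 lower (all genes: 23.6% and 20.8%). The 9 that stayed higher are ERG10, ERG8, ERG20, ERG9, ERG26, ERG27, ERG6, ARE2 and HES1. The 3 called lower in TPM remained lower, and 10 more joined them: IDI1, ERG11, NCP1, ERG24, ERG25, ERG2, ERG5, ARE1, YEH2 and AUS1. Centring gave -0.55 for ERG11, -0.46 for ERG25, -0.63 for ERG3 and -0.68 for ERG4, so these abundant late enzymes lay below the median gene while ERG9 and ERG20 lay above it. Spike-in scaling moved all genes the other way (median 0.79) and gave 30 members higher and 0 lower (all genes: 87.1% and 0.669%). With it ERG11, ERG3, ERG4 and YEH1 stood at 0.25, 0.17, 0.12 and 0.12 with no call, so that the sign of these 4 depends on the scaling.

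**Figure D3:**
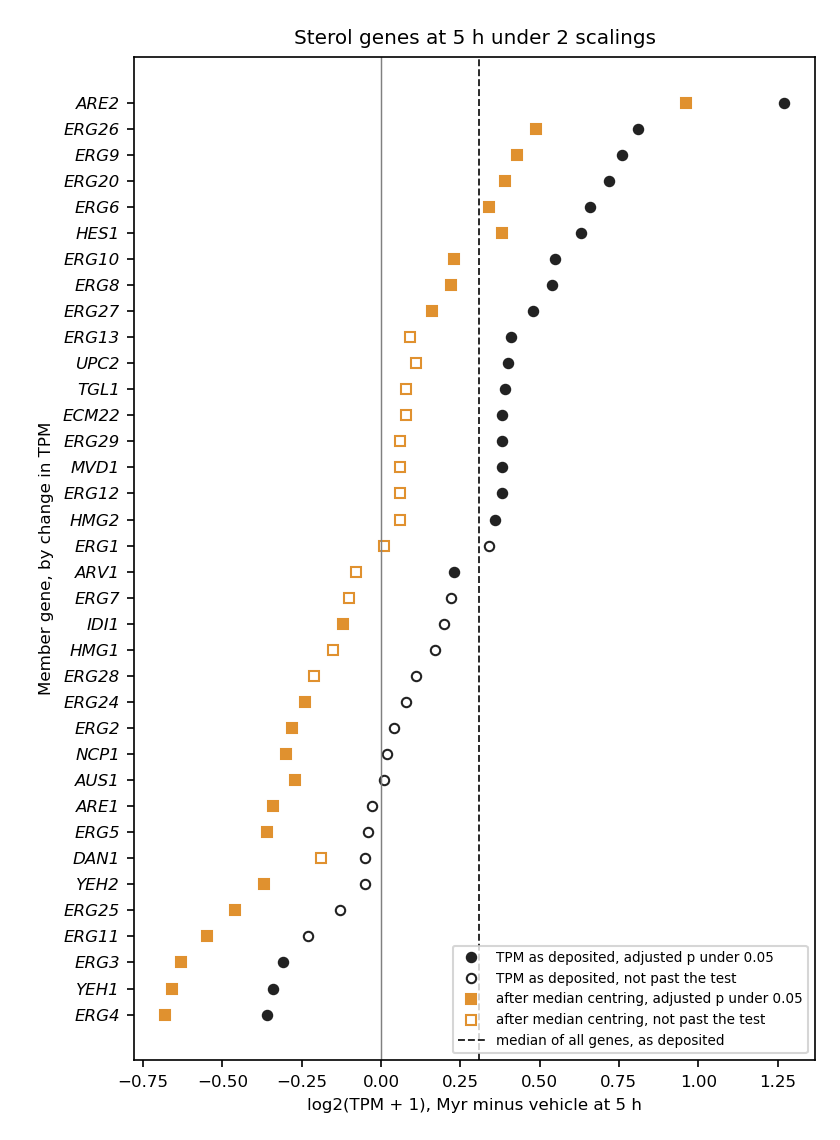
Change at 5 h in log2(TPM + 1), Myr minus vehicle (x axis), of each member (y axis), as deposited (circles) and after median centring (squares), filled where the adjusted p was under 0.05, with the median of all genes at 0.31 as a dashed line. Centring shifts every member to the left, and 9 genes stay higher while 13 are lower.

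Differences between genes within a library are left as they are by median centring. The mean log2 level of the 12 early enzymes lay below that of the 13 late ones in every library. In vehicle the difference went from -1.28 at 1 h to -0.63 at 6 h and with Myr from -1.09 to -0.40, so the early enzymes came closer to the late ones in both. The libraries with Myr lay above those with vehicle, with no overlap, at every hour except 3 h, by 0.12 at 0 h, 0.19 at 1 h, 0.17 at 2 h, 0.11 at 4 h, 0.30 at 5 h and 0.23 at 6 h. At 5 h the 3 vehicle libraries were at -0.88, -0.68 and -0.71 and the 3 Myr libraries at -0.45, -0.47 and -0.44. A difference of 0.12 was thus there at 0 h. The vehicle libraries rich in RPL41A had the lowest values of their hours. These were -1.09 and -1.07 against -0.86 at 3 h, and -0.94 against -0.77 and -0.76 at 4 h. At 5 h library A is the one at -0.88. Median centring does not remove an effect that differs between the genes of a library, and its part here was not tested. Coding lengths ran from 867 bases (IDI1) to 3165 (HMG1) in the early enzymes and from 447 (ERG28) to 2076 (NCP1) in the late ones. The difference was not computed with a trend on coding length removed, so the part of length in it was not tested.

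For single pairs of genes, ERG9 minus ERG3 was -2.52, -2.24 and -2.23 in vehicle and -1.25, -1.29 and -1.27 with Myr at 5 h, a gap of 1.06 that was 0.15 at 0 h and 0.37 at 6 h. ARE2 minus ARE1 was 1.03 ± 0.08 in vehicle and 1.17 ± 0.04 with Myr at 0 h (SD, n = 3). By 2 h it had fallen to -0.61 ± 0.11 and -0.65 ± 0.06, and at 5 h it was -0.52 ± 0.09 in vehicle and 0.78 ± 0.10 with Myr. ARE2 was thus below ARE1 in all vehicle libraries from 2 h on and above it in all Myr libraries at 5 and 6 h.

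**Figure D4:**
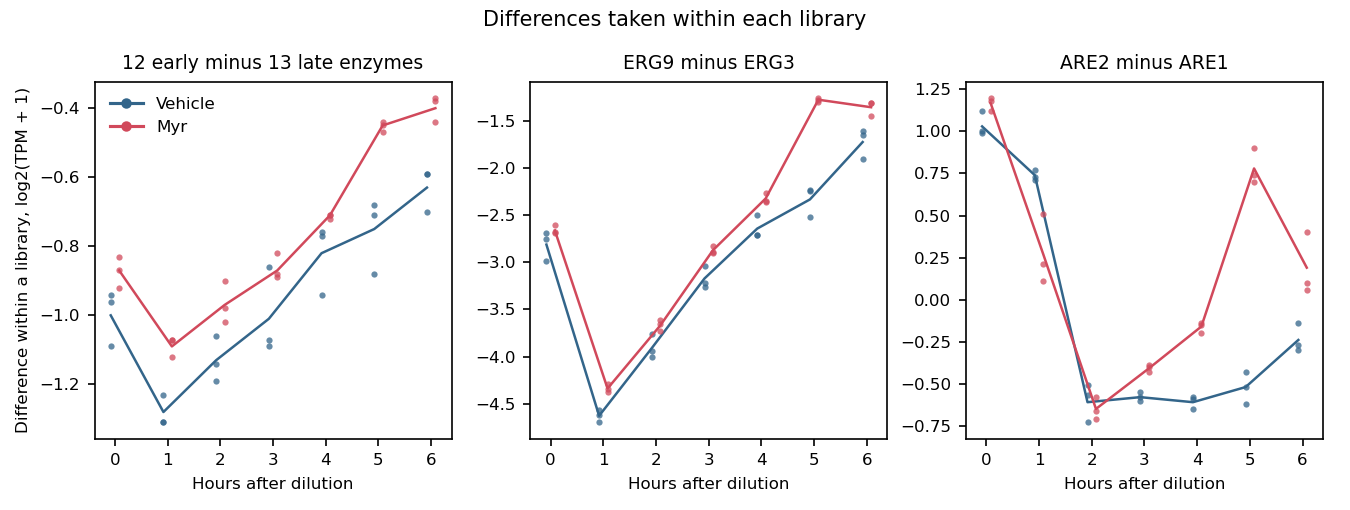
Differences within each library in log2(TPM + 1) (y axes) against hours after dilution, for the mean of 12 early minus 13 late enzymes, ERG9 minus ERG3, and ARE2 minus ARE1, with 1 point for each library and lines through the means of 3. The gap between Myr (red) and vehicle (blue) is widest at 5 h in all 3 panels, at 0.30 and 1.06 in the first 2. In these 2 the lowest vehicle point at 5 h is library A, which is rich in RPL41A.

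The summed TPM of the 25 enzymes at 5 h was 3508, 3864 and 3851 in vehicle and 4066, 4252 and 4270 with Myr (exact permutation p = 0.10, the smallest possible). The 12 early enzymes summed to 1240 ± 131 TPM in vehicle and 1720 ± 39.7 TPM with Myr, while the 13 late ones were at 2501 ± 71.8 and 2475 ± 74.4 TPM (SD, n = 3). The share of ERG25 and ERG3 was 26.6% ± 0.78 in vehicle and 20.4% ± 0.35 with Myr. Markers of saturated culture moved with this comparison: SPI1, HSP12 and HSP26 were higher in 3 of 3 cases, and their summed level was 76 to 86.9 TPM in vehicle and 421 to 483 TPM with Myr, against 15026 to 16889 TPM in vehicle at 0 h, with none at zero. All 3 were also higher at 1 h, 3 h and 4 h, and 2 of 3 at 2 h. The sums in vehicle and with Myr were 385 to 427 and 696 to 753 TPM at 1 h, 190 to 307 and 297 to 368 TPM at 2 h, 137 to 186 and 265 to 341 TPM at 3 h, and 109 to 126 and 231 to 295 TPM at 4 h. Their part in the sterol gene changes at these hours was not tested.

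At 6 h 7 members were higher and 2 lower (all genes: 23%, with 19.6% and 3.43%). HES1 was at 2.13, 2.5 and 2.95 TPM in vehicle and at 4.06, 4.34 and 4.51 TPM with Myr (0.59 ± 0.15, adjusted p = 0.0046). ERG9 was at 101, 123 and 117 TPM and at 167, 157 and 157 TPM (0.49 ± 0.12, adjusted p = 0.0023). ERG27 was at 67, 68.2 and 68.6 TPM and at 94.2, 93 and 99.4 TPM (0.48 ± 0.10, adjusted p = 0.00063). In these 3 genes every Myr library was above every vehicle library, and the same holds for ARE2, at 20.5, 22 and 21.9 TPM and at 30, 31.3 and 29.4 TPM (0.47 ± 0.11, adjusted p = 0.002).

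ERG20 (0.37 ± 0.13), ERG10 (0.35 ± 0.11) and IDI1 (0.29 ± 0.10) were also higher, and ERG28 (-0.32 ± 0.10) and ERG4 (-0.25 ± 0.07) lower. All 9 stayed called after median centring, where 12 members were higher and 12 lower (all genes: 18.1% and 10.8%). With spike-in scaling 7 stayed so, and the calls of ERG28 and ERG4 were lost. With a trend on coding length removed 6 members were higher and 14 lower (15.5% and 16.1%), and the calls of IDI1 and ERG20 were lost. The count was 5 without Myr library A or B, where the calls of ERG20, ERG10, IDI1 and ERG28 were lost. The saturated culture markers summed to 145 to 169 TPM in vehicle and 835 to 1311 TPM with Myr, and here too their part was not tested.

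Over the hours from 1 to 6 h, 20 members were called higher at 1 hour or more and never lower (all genes: 67.2%). A further 7 were called lower and never higher (ERG25, ERG28, ERG2, ERG3, ERG4, YEH1, DAN1; all genes: 6.54%), and ERG5 and ARE2 were called in both directions (all genes: 3.03%), lower at 1 h and higher at 3 h or later. The 7 never called (all genes: 23.2%) were ERG1, squalene epoxidase, ERG7, ERG11, NCP1, the reductase that serves it, ARE1, YEH2 and AUS1. In the two-way model of those hours, with calls at p of 0.01 or less, time had an effect on 30 members (all genes: 86.5%) and the drug, averaged over hours, on 23 (70.1%). Of these 19 were higher (all genes: 64.5%) and 4 lower (5.65%), the latter being ERG28, ERG4, YEH1 and DAN1. ARE2 (0.39 ± 0.05), ERG9 (0.37 ± 0.05), ERG8 (0.33 ± 0.05) and ERG27 (0.32 ± 0.04) had the largest averages among those higher, and DAN1 (-0.36 ± 0.09) the largest among those lower. The early enzymes were higher in 11 of 12 cases, HMG1 alone not being called (0.09 ± 0.05), and the late ones were higher in 5 and lower in 2 of 13. With the column letter as a random block HMG2, ERG7, ERG24 and ERG29 were no longer called. This leaves 15 members higher and 4 lower (all genes: 45.5% and 4.45%), with 9 of 12 early and 3 of 13 late enzymes higher. After median centring the drug term gave 9 members higher and 14 lower (all genes: 26.5% and 18.5%). With a trend on coding length removed it gave 8 and 17 (23.5% and 20.7%).

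The drug and the hour interacted for 11 members (all genes: 22.6%), ERG20, ERG9, ERG24, ERG26, ERG6, ERG2, ERG5, ERG4, ARE2, YEH1 and HES1. Without vehicle 1 h library C the count was 7, and without vehicle 4 h library B it was 20. From 4 to 5 h 0 members were called in vehicle (all genes: 1.79%, with 1.24% higher and 0.552% lower), where limma gave 1 higher and 3 lower at an unadjusted p under 0.05, and 11 with Myr (36.4%). The latter were 8 higher and 3 lower (31.6% and 4.76%), led by ARE2 (0.93 ± 0.11), ERG20 (0.78 ± 0.13) and ERG26 (0.64 ± 0.12). The step itself differed between treatments for 3 members, all of them larger with Myr (all genes: 12.1%, with 11.4% higher and 0.685% lower). These were HES1 (0.82 ± 0.26, adjusted p = 0.031), ARE2 (0.78 ± 0.16, adjusted p = 0.00071) and ERG26 (0.72 ± 0.17, adjusted p = 0.004). This contrast uses the same libraries as the 4 h and 5 h comparisons. HES1 was at 2.79, 4.56 and 4.66 TPM in vehicle and at 2.87, 3.26 and 3.88 TPM with Myr at 4 h, where the groups overlapped, and at 2.59, 2.79 and 2.96 TPM against 4.33, 5.62 and 4.7 TPM at 5 h, where they did not. Its call was lost without any of vehicle 4 h C or D, vehicle 5 h A, Myr 4 h A or B, or Myr 5 h B or C. Without vehicle 4 h library B 13 members were called, and with spike-in scaling 0 (all genes: 1.29% higher and 0.251% lower). With a trend on coding length removed the 3 stayed higher and 7 members were lower (9.24% and 6.75%).

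The calls were set beside the motifs. Of the 21 members with at least 1 of the 3 sterol forms, 8 were higher and 3 lower at 5 h, with a median of 0.11, and of the 15 with none 10 were higher and 0 lower, with a median of 0.38. At 6 h the medians were 0.11 and -0.04. ERG9 and ERG20 have the anaerobic form, as does ERG4, which was lower at both hours.

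Other genes around the pathway were read as lists at 5 h, with counts to set against the same 52.2% and 3.99%. Among 18 genes of sterol transport 13 were higher and 1 lower, with a median of 0.44 (all genes 0.31). OSH6 was the highest at 1.39 ± 0.11, followed by PRY2 at 1.04 ± 0.13, a secreted sterol-binding protein whose relative PRY1 was the one lower at -0.62 ± 0.12, and LAM5 at 0.90 ± 0.13. Of 9 genes of sterol enzyme turnover and partners 4 were higher, UBC7, NSG2, HRD1 and HRD3. HRD1, the ubiquitin ligase that degrades Hmg2, was higher by 0.56 ± 0.09. Of 11 genes that draw isoprenoids from the pathway 6 were higher and 0 lower, led by COQ1 of ubiquinone synthesis (0.51 ± 0.13). Among 16 genes regulated by oxygen and heme 4 were higher and 5 lower, with a median of 0.04. The desaturase gene OLE1 (-0.53 ± 0.11) and the anaerobic wall gene TIR3 (-0.93 ± 0.18) were lower, and the repressor genes ROX1 (0.55 ± 0.13) and MOT3 (0.64 ± 0.13) higher. OLE1 went the other way at the hours on either side, with 0.89 ± 0.11 at 4 h and 0.64 ± 0.11 at 6 h, and TIR1, another wall gene, was lower at 5 h (-0.45) and higher at 6 h (0.87 ± 0.18), while TIR3 was lower at 4, 5 and 6 h. The 4 targets of phospholipid regulators were all higher, from 0.76 ± 0.07 for CHO1 to 4.07 ± 0.15 for INO1, past the largest change of any sterol gene.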

How the data were processed

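From poly(A) RNA, the authors made stranded TruSeq libraries, called bases with bcl2fastq 2.17.1.14, trimmed reads with Trimmomatic 0.36 and assigned them with Salmon 0.8.2 to R64 transcripts and 92 spike-ins. They deposited TPM, which sum to 1000000 in each of 42 columns of 6198 rows, so one abundant RNA lowers all others. No column of sample values was left unused (0).

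Columns were assigned by label. Salmon shares reads among similar transcripts. Models were fitted with limma 3.58.1 in R 4.3.3 to log2(TPM + 1), with a variance trend and spike-ins left out: 36 libraries of 1 to 6 h for drug contrasts and two-way terms, all 42 for 0 h and time steps. They were also run on simulated data with independent noise of 1 SD per gene. Those data held no shared flasks and no effect of length or of an abundant RNA, so the run cannot speak to these. Within-library values, motif searches and plots used Python 3.11.15.

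Members, roles, lists and tests were chosen with earlier results of these data known. Values in every library are given for the 4 largest changes among called members at 5 h, at 6 h and in both vehicle time contrasts, the 2 largest at each of 1 to 4 h, and for HMG1, HMG2, ERG11, UPC2, ECM22, AUS1, DAN1, ARE1 and ARE2; values of others (ERG4 at 0 h, HES1 in the step from 4 to 5 h) were chosen after they were seen. DAN2 and DAN3 of the lists were not matched, and YSP1 was counted once, under its current name LAM1. Alternatives were other pseudocounts (0.1, 10), filters and scalings, no variance trend, only the libraries of a contrast, a column letter block and left-out libraries. Spike-in scaling held each library to the spike-in level at 0 h of its treatment, since the mixes differ.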

Additional observations from a re-analysis of the deposited data

Results flagged for a closer look

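In 4 places Myr and vehicle followed different courses, by a test of the difference itself with limma. The change from 4 to 5 h was larger with Myr than with vehicle for HES1 by 0.82, for ARE2 by 0.78 and for ERG26 by 0.72 on the log2(TPM + 1) scale. In the two-way model the effect of the drug varied with the hour for 11 members, where 22.6% of all genes showed such an interaction. The step was called for 12.1% of all genes, and that of HES1 was no longer called without any single one of 7 libraries.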

How the results depend on the processing

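No paired analysis was possible because the columns carry no replicate number, only a letter, and nothing ties a Myr letter to a vehicle letter. With this letter as a block instead (a random term with an estimated correlation 0.180 over 1 to 6 h) the count of members called at 4 h was 4, and no other count of members moved by over 1.5 times; the calls lost were DAN1 at 2 h, ERG20 and ARE2 at 3 h, ARV1 at 5 h, and HMG2, ERG7, ERG24 and ERG29 for the drug. Median centring gave 8, 8, 8, 7 and 24 members at 0, 1, 2, 4 and 6 h, 22 interactions and 8 for the step from 4 to 5 h. Spike-in scaling gave 0, 0, 34, 34, 33 and 16 at 0, 1, 2, 3, 4 and 6 h, 35 for the drug and 0 for the step. Removing a trend on coding length gave 9, 9, 6, 7 and 20 at 0, 1, 3, 4 and 6 h, 19 interactions and 10 for the step. Fits of only the libraries compared gave 0, 3, 17, 0, 0 and 16 at 0, 1, 2, 3, 4 and 6 h and 1 for the step. For the count of 0 at 0 h, no gene of the table was called by that fit. Without the 4 libraries rich in RPL41A the counts were 20, 0 and 17 at 2, 3 and 6 h, 18 interactions and 11 for the step. The total at 5 h (21) stayed within 1.5 times, but its 18 higher and 3 lower became 9 and 13 after median centring, 8 and 15 without the length trend and 30 and 0 with spike-in scaling, and 12, 11 and 18 of the 21 calls were kept. The causes were not tested.

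Leaving out 1 library gave 2 to 7 members at 0 h, 2 to 5 at 1 h, 0 to 5 at 2 h, 1 to 18 at 3 h, 1 to 8 at 4 h, 15 to 21 at 5 h and 5 to 8 at 6 h. It gave 29 to 34 for time, 21 to 24 for the drug, 7 to 20 for the interaction and 2 to 13 for the step. In vehicle it gave 25 to 28 from 0 to 1 h and 27 to 30 from 1 to 6 h, and with Myr 25 to 27 in both.

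Single values reversed, with a call in at least 1 of the fits, for YEH1 at 4 h with spike-in scaling (0.28), HMG1 at 5 h without the length trend (-0.18), AUS1 at 5 h after centring (-0.27) and without the length trend (-0.28), and ARE1 at 5 h with spike-in scaling (0.43). A further 10 values changed sign with no call in either fit, all at 5 h: ERG11 with spike-in scaling (0.25), HMG1 (-0.15), and values of DAN1 (up to 0.20), AUS1 and ARE1. Of the other values of single members under these settings, 457 kept their direction and call, 57 lost the call and 8 gained one. Depth is unknown, and so is the number of reads behind low genes such as DAN1.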
